A study of Mus musculus with 8 samples.

Results

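The enzymes that write and remove cytosine methylation on DNA were followed in the cochlea of mice lacking miR-29a (miR-29a-/-, KO) and of wild-type (WT) mice. The set held 7 genes, chosen by symbol from the 21895 genes of the expression table: Dnmt1, Dnmt3a, Dnmt3b, Tet1, Tet2, Tet3 and Tdg. All except Dnmt1 are known as miR-29 targets from other tissues, and Dnmt1 was included as a non-target of the same pathway. RNA-seq of the cochlea gave 4 WT libraries (WT1 to WT4) and 4 KO libraries (KO1 to KO4), and the unit was FPKM, a fragment count normalised to transcript length and to the mapped fragments of the library. The mice were on the C57BL/6 background and came from heterozygous breeding, the knockout allele was inherited through the germline, and no group received a treatment. The sample records give an age of 21 days and the methods of the study give 2 months, so the age is uncertain, and both sexes were used. Whether a library holds 1 animal or pooled cochleae is not given in the sources used here, so p-values measure the spread between these libraries only. miR-29a itself was not measured in the table, so the deletion could not serve as a check of the labels.

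DNMT3A and DNMT3B place methyl groups on unmethylated CpG sites, and DNMT1 copies the pattern onto the new strand when DNA is replicated. The TET enzymes (TET1, TET2 and TET3) oxidise 5-methylcytosine, and the thymine DNA glycosylase TDG cuts out the most oxidised bases, which base excision repair then replaces with plain cytosine. A miRNA pairs through its seed, bases 2 to 8, with the 3′-UTR of a target mRNA and lowers its stability or translation. DNMT3A and the TET enzymes are prominent in neurons, which do not divide, whereas DNMT1 is strongest in dividing cells.

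The 3 mature miR-29 sequences are shown because they share the seed, so each of them can pair with the same sites. The labels name miR-29a as deleted, and the levels of the others in the KO mice were not analysed here. In GRCm38, miR-29a lies at chr6:31062673-31062694, with miR-29b-1 next to it on the same strand, and miR-29b-2 and miR-29c lie on chromosome 1. The sequences are from RefSeq (GRCm38.p6), written 5′ to 3′ with the seed in capitals.
miR-29a-3p: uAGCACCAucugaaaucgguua
miR-29b-3p: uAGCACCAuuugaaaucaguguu
miR-29c-3p: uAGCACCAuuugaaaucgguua

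In GRCm38, Dnmt1 (ENSMUSG00000004099) lies at chr9:20907209-20959888 on the minus strand, Dnmt3a (ENSMUSG00000020661) lies at chr12:3806007-3914443 on the plus strand, and Dnmt3b (ENSMUSG00000027478) lies at chr2:153649450-153687730 on the plus strand. Tet1 (ENSMUSG00000047146) lies at chr10:62804570-62908996 on the minus strand, Tet2 (ENSMUSG00000040943) lies at chr3:133463679-133545139 on the minus strand, and Tet3 (ENSMUSG00000034832) lies at chr6:83362373-83459084 on the minus strand. Tdg (ENSMUSG00000034674) lies at chr10:82629828-82650799 on the plus strand. Matches to this seed were searched, on the sense strand, in the longest annotated 3′-UTR of each gene (GENCODE mouse release M21, GRCm38). The seed match is TGGTGCT, and the 8-base match is TGGTGCTA, the seed match followed by A. The 3′-UTR of Dnmt1 is 312 bases long and holds 0 matches. The other 6 genes hold 29 in total, of which 8 are 8-base matches. Tet3 has 8 seed matches in 5669 bases, Tet1 has 7 in 7962 bases, Dnmt3a has 5 in 6696 bases, Tet2 has 5 in 3058 bases, Tdg has 3 in 2079 bases and Dnmt3b has 1 in 1331 bases. Among tested genes with a 3′-UTR, 15.5% hold at least 1 seed match and 3.38% hold an 8-base match. Long 3′-UTRs hold the motif more often: among genes of similar 3′-UTR length the share with a seed match is 52.0% for Tet1, 48.2% for Dnmt3a, 45.2% for Tet3, 27.5% for Tet2, 19.9% for Tdg, 12.8% for Dnmt3b and 4.49% for Dnmt1. A match is a sequence feature and does not show that the site is used.

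The 8-base matches, the single match of Dnmt3b, and the closest pair of matches in the set, which start 13 bases apart in Tet3, are printed below as windows of 30 bases on the mRNA strand. All lie in 3′-UTR exons. The coordinates are those of the printed window in GRCm38, and capitals mark the seed match, with the A after it where present.
Dnmt3a, 8-base match, chr12:3911383-3911412 (plus strand): gcccttgcccaggggaggtagcTGGTGCTA
Dnmt3a, 8-base match, chr12:3911452-3911481 (plus strand): acataccagcggggtcccaagcTGGTGCTA
Dnmt3b, its single seed match, chr2:153686605-153686634 (plus strand): ggctgcttagagtagcccggcaTGGTGCTc
Tet1, 8-base match, chr10:62806042-62806071 (minus strand): aatgaaggtttcttgaaggagaTGGTGCTA
Tet2, 8-base match, chr3:133466173-133466202 (minus strand): ctgtttgggtgttaacattaaaTGGTGCTA
Tet2, 8-base match, chr3:133465116-133465145 (minus strand): tgaagaaaaattcacatcacgaTGGTGCTA
Tet3, seed match, chr6:83367016-83367045 (minus strand): gcgggtgctctgcggtgctgtgTGGTGCTg
Tet3, seed match, chr6:83367003-83367032 (minus strand): ggtgctgtgtggtgctggagccTGGTGCTg
Tet3, 8-base match, chr6:83364336-83364365 (minus strand): tgaattgaaatagtctaataaaTGGTGCTA
Tet3, 8-base match, chr6:83363777-83363806 (minus strand): tgccaccaaggccgcttttagtTGGTGCTA
Tdg, 8-base match, chr10:82649655-82649684 (plus strand): gtggctgctcatgcattttccaTGGTGCTA

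**Figure D1:**
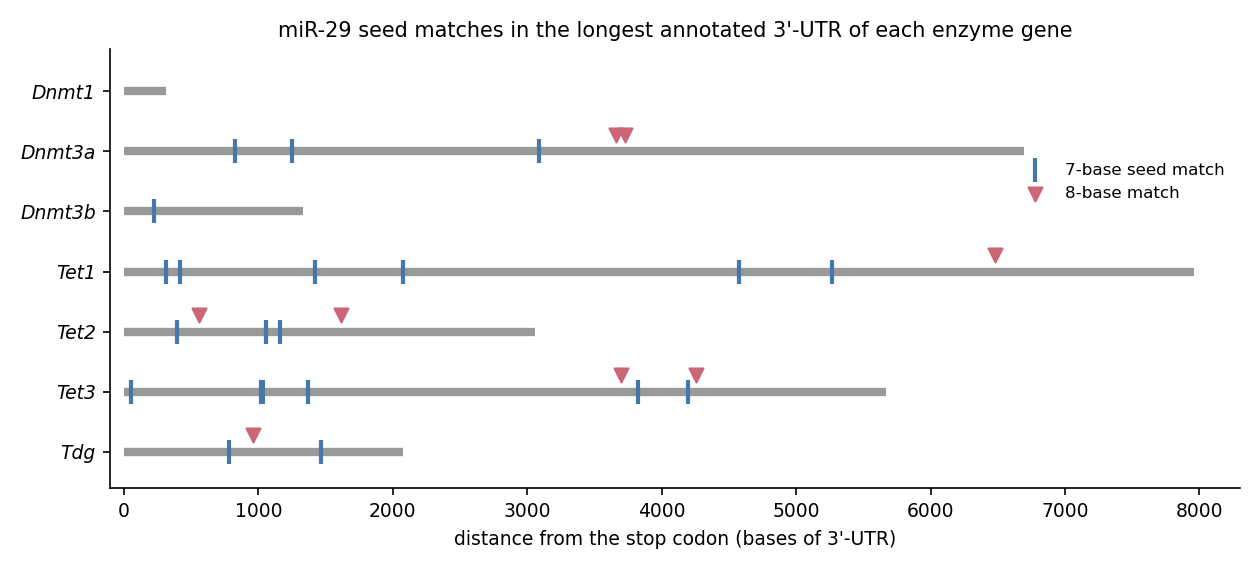
Position of the miR-29 seed matches (horizontal axis, bases from the stop codon) along the longest annotated 3′-UTR of each of the 7 genes (grey bars). Blue ticks are 7-base matches and red triangles are 8-base matches. Dnmt1 has 0 matches in its 312 bases, and the 2 neighbouring 8-base matches of Dnmt3a start 69 bases apart.

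The libraries were first compared as a whole. WT1 and WT3 stood at opposite ends of the first principal component, which held 50.9% of the variance (-91.0 for WT1, 82.0 for WT3, and -37.0 to 35.1 for the other libraries). Correlations between WT libraries ranged from 0.725 to 0.962 and those between KO libraries from 0.924 to 0.957. The 19 cochlear markers (among them Coch, Otos, Tecta and Myo7a) were detected in every library, with sums of 2003 to 3301 FPKM in WT and 2089 to 2728 in KO. Genes of other cell types varied widely: the summed FPKM of 17 proliferation genes ranged from 27.5 (WT3) to 402 (WT1) in WT and from 157 to 332 in KO, that of 12 neutrophil genes from 76.0 to 10737 in WT and from 1869 to 5589 in KO, and that of 9 erythroid genes from 450 to 7492 in WT and from 4911 to 12128 in KO. The 11 B-lineage genes summed to 35.2 to 72.3 FPKM in WT and 73.6 to 136 in KO, and these ranges did not overlap. Bone genes (8) summed to 1154 to 1946 in WT and 1855 to 2335 in KO, macrophage genes (8) to 66.1 to 138 in WT and 70.1 to 144 in KO, and muscle genes (7) to 0.55 to 9.71 in WT and 2.80 to 319 in KO. Of these lists, Ctsg (neutrophil) and Tnnt3 (muscle) were at 0 in WT3. The estimated relative depth of the libraries was 0.951 to 1.16. Composition was less even: the 10 highest genes held 17.6% of the summed FPKM of WT1, but 8.50% (KO2) to 10.9% (KO3) elsewhere. The median deviation of log2 levels from the gene means was -0.358 for WT1, against -0.090 (KO1) to 0.128 (KO2) for the rest. A typical gene thus read low in WT1, and how far this lowered the WT1 values of single genes was not tested. In whole cochlear RNA, fewer cells of a type and less RNA per cell cannot be told apart.

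All 7 genes were expressed and passed the filter of a mean of 0.5 FPKM. FPKM is a level per length of transcript, so levels can be set side by side. Over the 8 libraries Dnmt3a was highest at 22.8 ± 5.30 FPKM (mean ± SD, n = 8), followed by Tet3 at 18.1 ± 3.78, Dnmt1 at 17.3 ± 4.85 and Tet2 at 16.5 ± 2.67. The order differed between the groups: after Dnmt3a it ran Tet2 (17.5), Tet3 (15.1) and Dnmt1 (14.9) in WT, and Tet3 (21.2), Dnmt1 (19.8) and Tet2 (15.5) in KO. In WT1, Dnmt3a was below all 3 of these. The middle neighbours in this order overlapped: Tet3 was above Dnmt1 in 6 of 8 libraries and Dnmt1 above Tet2 in 5 of 8. Tdg (7.76 ± 1.53) and Tet1 (6.25 ± 0.768) formed a lower pair, with Tdg higher in 7 of 8 libraries. Dnmt3b was lowest at 1.41 ± 0.343 FPKM, below Tet1 in 8 of 8.

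In the comparison of KO with WT, 1 of the 7 genes passed the threshold, Tet3, which was 1.42-fold higher in KO. A gene was counted as changed at an unadjusted p below 0.05 in limma on log2(FPKM + 0.1), the threshold used by the study. By this rule 767 of 14990 tested genes (5.12%) were counted, 691 higher in KO (4.61%) and 76 lower (0.507%). After Benjamini-Hochberg adjustment over all tested genes, 0 genes (0%) were below 0.05, and the lowest adjusted p of the 7 genes was 0.947. Their log2 fold changes had a median of 0.32, with 5 of 7 above 0, and over all tested genes the median was 0.10, with 66.5% above 0. Scaling the libraries by median ratios brought the median of all genes to 0.0043 and the split to 402 higher and 363 lower genes, and quantile normalization gave -0.037 with 378 higher and 547 lower. Tet3 stayed below 0.05 under both (log2 fold change 0.40 and 0.39), and no member changed direction.

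**Figure D2:**
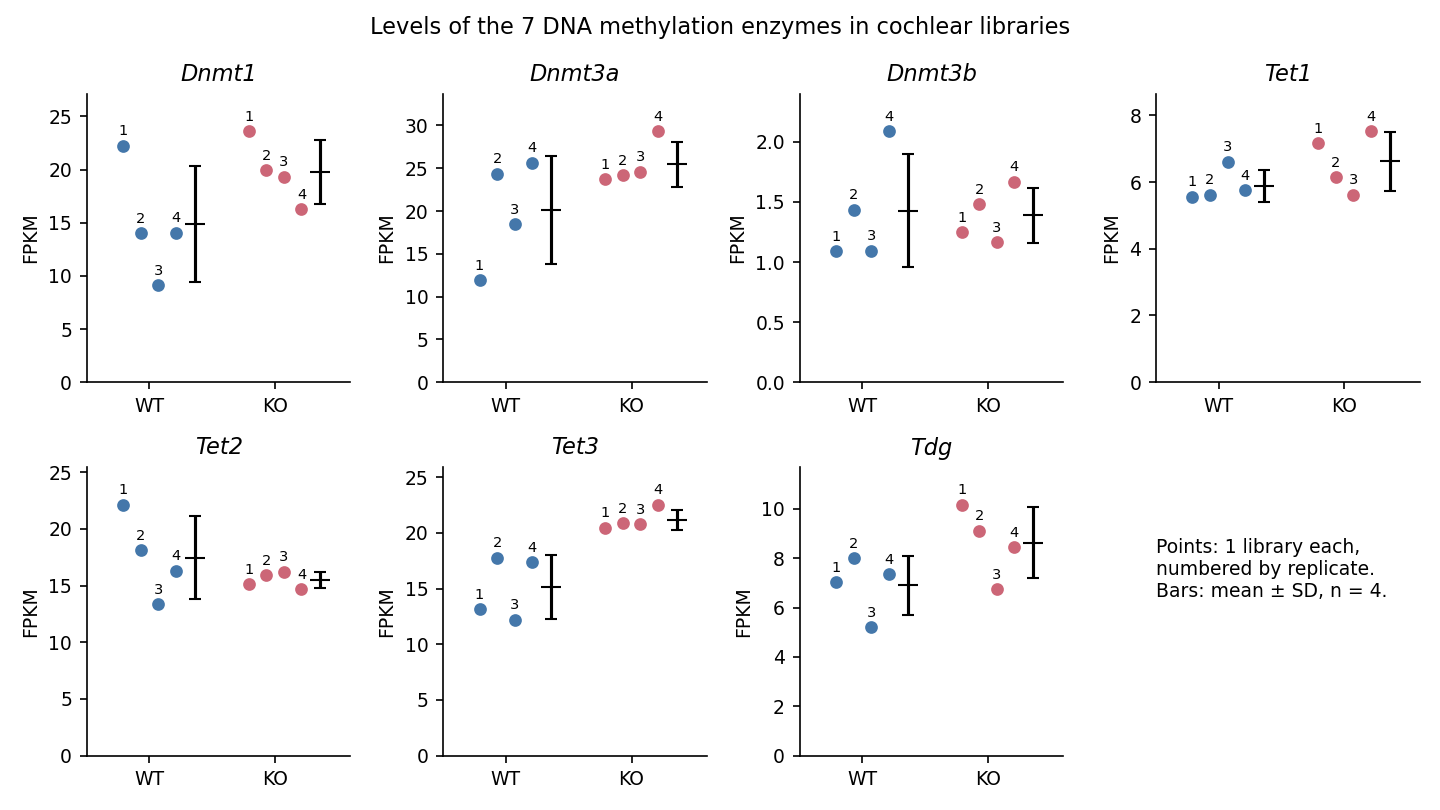
FPKM (vertical axes, each starting at 0) of the 7 enzyme genes in the 4 WT (blue) and 4 KO (red) libraries. Points are single libraries numbered by replicate, and bars are mean ± SD (n = 4). Tet3 is the gene whose KO values (20.5 to 22.5) all lie above its WT values (12.2 to 17.8).

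Among the oxidising enzymes, Tet3 is the family member active in the zygote and abundant in neurons. Its level was 13.1, 17.8, 12.2 and 17.3 FPKM in WT1 to WT4 and 20.5, 20.8, 20.8 and 22.5 in KO1 to KO4. The groups did not overlap, and the KO libraries lay close together (21.2 ± 0.932) while WT split into a lower pair, WT1 and WT3, and a higher pair, WT2 and WT4 (15.1 ± 2.86). The log2 fold change was 0.50 ± 0.15 (SE), with a 95% confidence interval of 0.15 to 0.85 (limma p = 0.0108, adjusted p = 0.947, exact two-sided permutation p = 0.0286). The last is the smallest p that 4 against 4 libraries can give. Of all tested genes, 525 (3.5%) had groups that did not overlap, 452 (3.02%) of them higher in KO, and 12.8% had a larger log2 fold change than Tet3. The call remained when any 1 library was left out (log2 fold change 0.41 to 0.59). Without both WT1 and WT3, the libraries at the ends of the first component, the log2 fold change was 0.27 and missed the threshold narrowly (limma unadjusted p = 0.0520, adjusted p = 0.314). In that fit 16.1% of all tested genes passed, against 5.12% with 8 libraries. The sums of the 7 lists for other cell types were higher in KO on average, and of these only the B-lineage sum did not overlap between the groups. Of the 19 cochlear markers, 11 had a log2 fold change below 0, with a median of -0.11, and 1 was called, Tectb of the tectorial membrane, lower in KO (-1.19) and named here after its value was seen. Their part in the result was not tested. Txndc11 and Ttyh3 were among the genes that followed Tet3 most closely across the 8 libraries (r = 0.98 and 0.97), of 14125 genes searched.

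Tet2, the family member best known from haematopoietic cells, was at 22.1, 18.1, 13.4 and 16.3 FPKM in WT1 to WT4 and at 15.1, 15.9, 16.2 and 14.7 in KO1 to KO4. The KO values lay inside the WT range, near its lower end. The means were 17.5 ± 3.68 in WT and 15.5 ± 0.716 in KO, and the log2 fold change was -0.15 with a 95% confidence interval of -0.52 to 0.22 (limma p = 0.384, adjusted p = 0.968, exact permutation p = 0.371). The 5 seed matches of Tet2 lie in the shortest 3′-UTR of the 3 TET genes, and their use was not tested. Tet2 showed no detectable difference in this comparison, and the interval holds changes in both directions. Its value moved with WT1, the highest library, being -0.030 (SE 0.13) without it. Man2b2, Glis3 and Igtp were closest to it in pattern (r = 0.97, 0.96 and 0.96), Igtp falling to 0.74 without WT1 and WT3.

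Tet1, the family member typical of pluripotent and germ cells, was at 5.56, 5.62, 6.60 and 5.75 FPKM in WT1 to WT4 and at 7.17, 6.15, 5.62 and 7.53 in KO1 to KO4. KO1 and KO4 were above every WT library, while KO2 and KO3 were within the WT range. The log2 fold change was 0.16 with a 95% confidence interval of -0.19 to 0.51 (limma p = 0.321, adjusted p = 0.962, exact permutation p = 0.229). Gm5930, XLOC_176678 and Lctl were closest in pattern (r = 0.90, 0.90 and 0.87).

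The TET transcripts were also taken as shares of their own sum, a quantity that does not depend on scaling between libraries. These shares were examined after the single values had been seen and are given without a test. Tet3 made up 32.2% to 44.0% of the sum in WT and 47.9% to 50.4% in KO. Tet2 made up 41.4% to 54.2% in WT and 32.8% to 38.1% in KO. Neither share overlapped between the groups, but they are parts of 1 sum, so these are not independent results. Tet3 was the most abundant TET transcript in all 4 KO libraries and also in WT4, whereas Tet2 was in WT1, WT2 and WT3. The share of Tet1 was 13.5% to 20.5% in WT and 13.2% to 16.8% in KO. The sum itself was 38.5 ± 4.30 FPKM in WT and 43.3 ± 0.989 in KO.

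**Figure D3:**
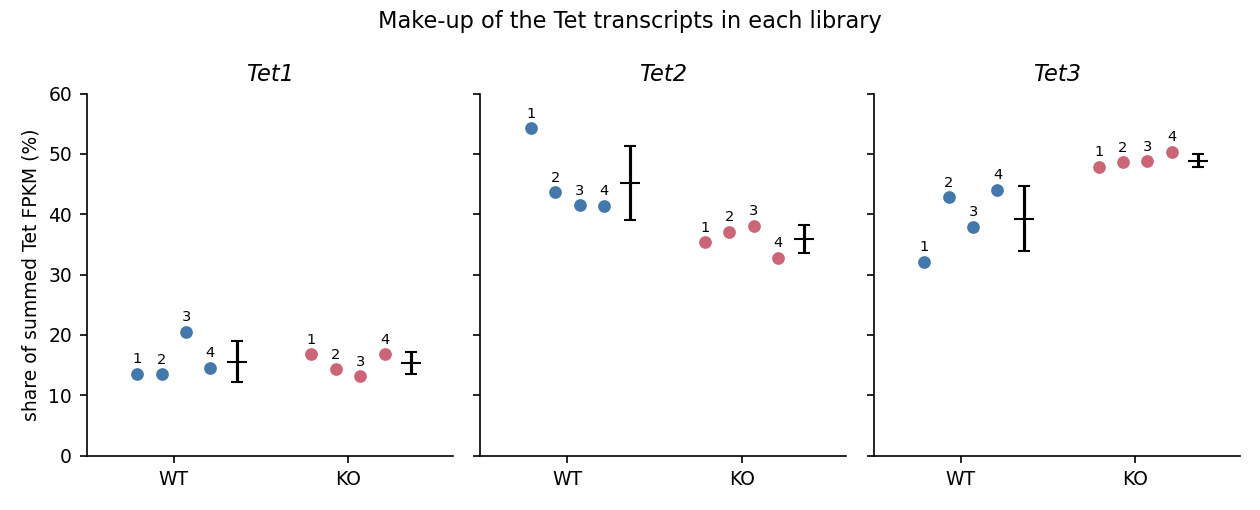
Share of each TET gene in the summed FPKM of Tet1, Tet2 and Tet3 (vertical axis, percent) in each WT (blue) and KO (red) library, with mean ± SD (n = 4). The KO libraries lie below all WT libraries for Tet2 and above all of them for Tet3.

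Of the methyltransferases, Dnmt3a, the main de novo enzyme of differentiated cells, was at 11.9, 24.4, 18.5 and 25.6 FPKM in WT1 to WT4 and at 23.7, 24.2, 24.6 and 29.3 in KO1 to KO4. WT1 and WT3 were the lowest libraries, and WT2 and WT4 lay among the KO libraries. The means were 20.1 ± 6.28 in WT and 25.5 ± 2.60 in KO, with a log2 fold change of 0.40 and a 95% confidence interval of -0.15 to 0.94 (limma p = 0.134, adjusted p = 0.947, exact permutation p = 0.257). The log2 fold change was 0.17 without WT1, 0.38 without WT3 and 0.022 without both. Hip1r, Rnf40 and Brf1 were closest in pattern (r = 0.99, 0.98 and 0.98).

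Dnmt3b, the de novo enzyme of early embryos, was at 1.09, 1.43, 1.09 and 2.09 FPKM in WT1 to WT4 and at 1.249, 1.48, 1.16 and 1.67 in KO1 to KO4. The KO values lay within the WT range. The means were 1.43 ± 0.470 and 1.39 ± 0.228 FPKM, and the 95% confidence interval of the log2 fold change was -0.62 to 0.62 (limma p = 0.997, adjusted p = 0.9999, exact permutation p = 1), so a difference of up to 0.62 on the log2 scale in either direction lay within the interval. Of the 50-base words in its transcripts, 9.81% also occur in those of its duplicate Dnmt3c, which was itself at most 0.156 FPKM. Ubr4, Pde8b and Zfp398 were closest in pattern (r = 0.99, 0.98 and 0.95).

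Dnmt1, the maintenance enzyme and the gene with no seed match, was at 22.2, 13.996, 9.14 and 14.04 FPKM in WT1 to WT4 and at 23.6, 19.9, 19.3 and 16.3 in KO1 to KO4. WT1 was second only to KO1, and the other 3 WT libraries were below every KO library. The means were 14.9 ± 5.44 in WT and 19.8 ± 3.02 in KO, with a log2 fold change of 0.47 and a 95% confidence interval of -0.12 to 1.05 (limma p = 0.102, adjusted p = 0.947, exact permutation p = 0.114). Without WT1 it was 0.68 and passed the threshold (limma adjusted p = 0.148), as it did without WT1 and WT3, at 0.48 (limma adjusted p = 0.230). In those fits 19.5% and 16.1% of all tested genes passed, against 5.12% with 8 libraries. Beside Tet3 (0.50), the value of Dnmt1 depended on the libraries kept: it was 0.68 against 0.44 for Tet3 without WT1, 0.26 against 0.41 without WT3, and 0.48 against 0.27 without both. With 8 libraries, 14.02% of tested genes had a larger log2 fold change than Dnmt1.

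The level of Dnmt1 went with genes of dividing and marrow cells. Its log2 level had a Pearson r of 0.98 (Spearman rho 0.95, n = 8 libraries) with the summed level of the 17 proliferation genes, and r was 0.95 over the 6 libraries other than WT1 and WT3. With the other sums its r was 0.95 for neutrophil, 0.91 for erythroid, 0.86 for B-lineage, 0.82 for bone, 0.81 for macrophage and 0.36 for muscle genes, and -0.60 for the cochlear markers, which turned to 0.19 without WT1 and WT3. The genes closest to it in pattern were Cenpk, a kinetochore component, Flt4, a receptor tyrosine kinase of lymphatic endothelium, and Depdc1a (r = 0.99 for each). For Tet3 the r was 0.69 with the B-lineage sum (rho 0.76), 0.64 with the muscle sum, 0.64 with the erythroid sum, 0.53 with the bone sum (0.85 without WT1 and WT3) and 0.50 with the proliferation sum (rho 0.24). With the proliferation sum the r was 0.64 for Tdg (rho 0.29), 0.54 for Tet2 (rho 0.33) and between -0.16 and -0.057 for Dnmt3a, Dnmt3b and Tet1. Without WT1 and WT3 these values became 0.32 for Tdg, -0.48 for Tet2, -0.41 for Dnmt3a, -0.67 for Dnmt3b and 0.22 for Tet1, and that of Tet3 became 0.61. In the same 6 libraries the r of Tet3 was 0.70 with the neutrophil sum (0.42 in all 8) and 0.70 with the cochlear sum (-0.12 in all 8). Tdg went most closely with the B-lineage sum, at r = 0.79 (rho 0.67) in all 8 libraries and 0.57 without WT1 and WT3. These correlations describe 8 libraries of both groups, and the part of the dividing or marrow cells in the level of Dnmt1 was not tested.

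**Figure D4:**
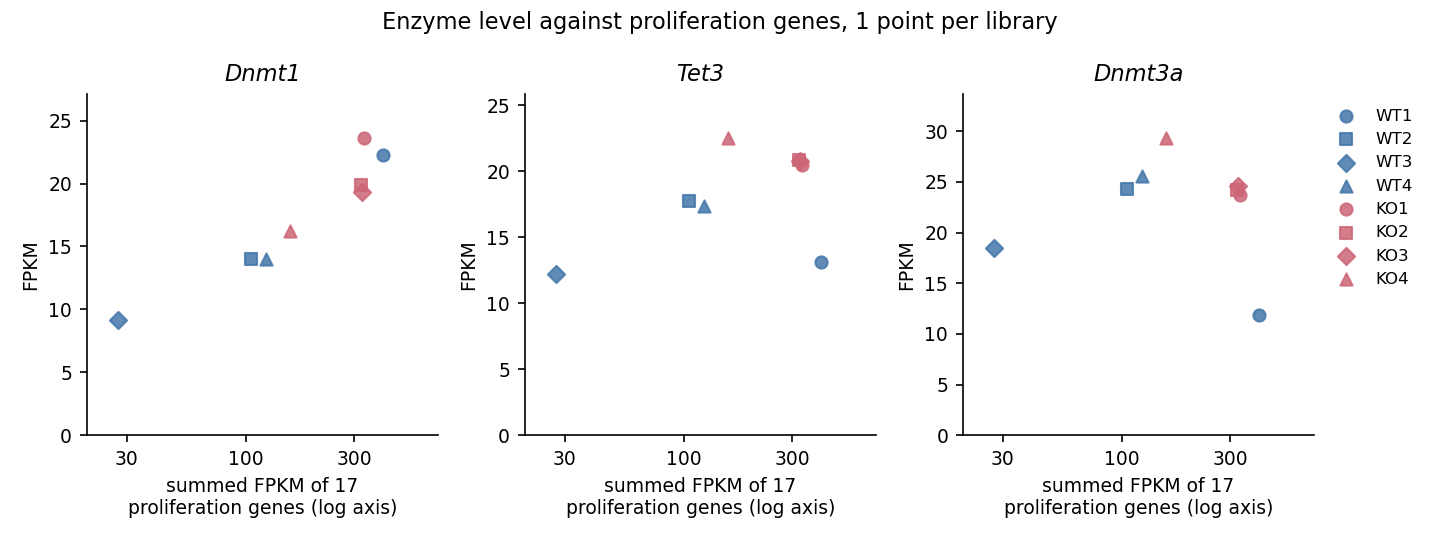
FPKM of Dnmt1, Tet3 and Dnmt3a (vertical axes) against the summed FPKM of 17 proliferation genes (horizontal log axis) in each library, WT in blue and KO in red. Dnmt1 follows the sum from WT3 (27.5) to WT1 (402), whereas Tet3 and Dnmt3a are low at both of these libraries.

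Tdg, the glycosylase that completes active demethylation, was at 7.02, 7.997, 5.21 and 7.36 FPKM in WT1 to WT4 and at 10.2, 9.12, 6.74 and 8.45 in KO1 to KO4. KO1, KO2 and KO4 were above every WT library and KO3 was below WT1, WT2 and WT4. The means were 6.90 ± 1.20 in WT and 8.62 ± 1.44 in KO, with a log2 fold change of 0.32 and a 95% confidence interval of -0.11 to 0.75 (limma p = 0.129, adjusted p = 0.947, exact permutation p = 0.143). Of its 50-base words, 35.5% occur in other genes, chiefly the pseudogene Tdg-ps (29.4%), the largest share among the enzyme genes. A further 367 bases overlap Glt8d2 on the opposite strand, and the libraries were strand-specific. The shared words could make the value of Tdg less certain, as could the overlap if fragments were not assigned by strand. Neither effect was tested. Ppil4, Fndc1 and Bach2 were closest in pattern (r = 0.98, 0.97 and 0.96).

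**Figure D5:**
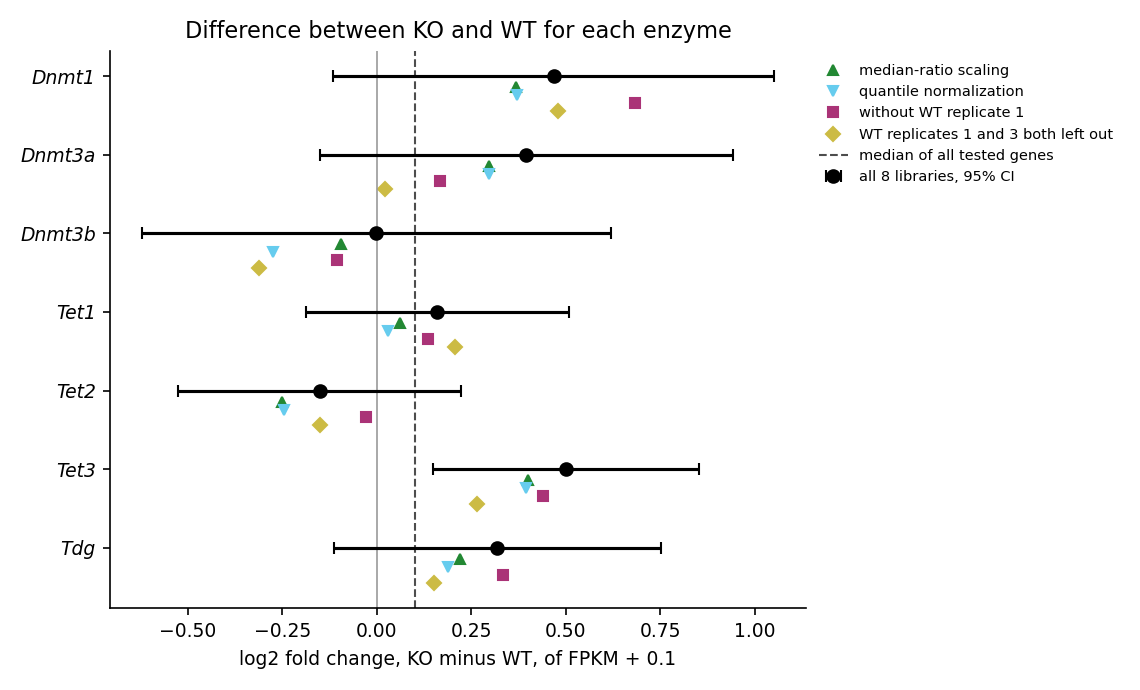
Log2 fold change of FPKM + 0.1, KO minus WT (horizontal axis), of each enzyme gene with its 95% confidence interval (black, 8 libraries) and under 4 other settings (coloured symbols), with the median of all tested genes as a dashed line. Tet3 is the gene whose interval (0.15 to 0.85) lies above 0, and its value drops to 0.27 when WT replicates 1 and 3 are both left out.

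The number of seed matches and the log2 fold change are set side by side for the 7 genes. Tet3 (8 matches) had a log2 fold change of 0.50, Tet1 (7) of 0.16, Dnmt3a (5) of 0.40, Tet2 (5) of -0.15, Tdg (3) of 0.32, Dnmt3b (1) of -0.00098 and Dnmt1 (0) of 0.47. To set the targets against the non-target within each library, the log2 ratio of each gene to Dnmt1 was compared between the groups by an exact two-sided permutation test, for 6 ratios with unadjusted p. The ratio of Tet2 to Dnmt1 was -0.0065 to 0.54 in WT and -0.64 to -0.15 in KO, a difference of -0.62 without overlap (exact p = 0.0286, the smallest possible). The ratio of Tet3 to Dnmt1 differed by 0.03 (exact p = 0.943), that of Dnmt3a by -0.07 (exact p = 0.943), that of Dnmt3b by -0.47 (exact p = 0.314), that of Tet1 by -0.31 (exact p = 0.429) and that of Tdg by -0.15 (exact p = 0.543). No ratio passed this test with a higher value in KO. Leaving out KO1, KO2 or KO3 raised the exact p of the Tet2 ratio to 0.0571, though the remaining libraries still did not overlap between the groups. Dnmt1 itself followed the proliferation genes, as given above.

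The genes that work beside these enzymes were taken from 5 lists, 56 genes in all, of which 52 passed the filter. Of these, 6 were counted as higher in KO (Uhrf2, Hells, Pcna, Ung, Gadd45a and Bhmt) and 0 as lower, against 4.61% and 0.507% of all tested genes. Over the 52 genes the log2 fold change had a median of 0.12, beside 0.10 for all tested genes. With median-ratio scaling the 52 genes gave 3 higher (Ung, Gadd45a and Bhmt) and 4 lower, and quantile normalization added Pcna to the higher ones. After adjustment, 0 of the 52 genes were below 0.05 (limma, lowest adjusted p = 0.922).

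Among the partners of the methyltransferases, 3 of 9 tested genes rose. Hells, a chromatin remodeller needed for DNA methylation, was at 2.97, 3.18, 1.39 and 2.81 FPKM in WT1 to WT4 and at 4.69, 5.44, 4.03 and 3.51 in KO1 to KO4, without overlap (log2 fold change 0.80, limma p = 0.0224, adjusted p = 0.947, exact permutation p = 0.0286). Pcna, the replication clamp that binds DNMT1, went from 26.001 ± 7.63 to 44.3 ± 12.9 FPKM (0.76, limma p = 0.0198, adjusted p = 0.947, exact permutation p = 0.0571). Uhrf2, a relative of UHRF1, ranged from 13.01 to 15.26 FPKM in WT and from 14.94 to 20.26 in KO (0.32, limma p = 0.0407, adjusted p = 0.947, exact permutation p = 0.0571). When single libraries were left out, Hells was still called in 6 of 8 fits (lost without KO1 or KO2), Pcna in 4 (lost without WT2, WT3, KO2 or KO3) and Uhrf2 in 2 (without WT1 or KO4). Uhrf1, which guides DNMT1 to newly replicated DNA, had the largest value of the list, at 11.3, 5.01, 0.483 and 6.15 FPKM in WT1 to WT4 and 16.4, 15.5, 13.7 and 8.50 in KO1 to KO4 (1.79, limma p = 0.0550, adjusted p = 0.947, exact permutation p = 0.0571). It passed the threshold without WT1 (2.32) and without WT3 (0.89). As for Dnmt1, its lowest WT library was WT3 and its highest was WT1, the order of the proliferation genes. Hells, Pcna and Uhrf1 are also genes of replicating cells, and the part of such cells in their values was not tested.

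In base excision repair, 2 of 16 tested genes were called higher, against 4.61% of all tested genes. Ung, the uracil glycosylase, was at 0.820, 1.14, 1.36 and 1.08 FPKM in WT1 to WT4 and at 1.90, 2.43, 2.17 and 1.95 in KO1 to KO4 (log2 fold change 0.90, limma p = 0.00356, adjusted p = 0.922, exact permutation p = 0.0286). Gadd45a, a stress-induced gene linked to demethylation by repair, was at 3.48, 6.26, 5.85 and 7.20 FPKM in WT1 to WT4 and at 9.95, 9.26, 12.6 and 9.09 in KO1 to KO4 (0.87, limma p = 0.00564, adjusted p = 0.947, exact permutation p = 0.0286). Neither gene overlapped between the groups, and both calls remained under either scaling, without WT1 and WT3, and when any 1 library was left out. Neil3, a glycosylase of dividing cells, had the largest value of the list but spread from 0.0636 to 10.4 FPKM in WT and from 6.60 to 11.4 in KO (1.80, limma p = 0.152, adjusted p = 0.947, exact permutation p = 0.114). Its log2 fold change was 0.46 without WT3 and 2.46 without WT1, and without both it was 0.79 and passed the threshold.

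Of the genes that serve the oxidation step, such as the isocitrate dehydrogenases that supply its cosubstrate, 0 of 8 passed, and the largest value was that of Cxxc4 (log2 fold change -0.28, limma p = 0.429, adjusted p = 0.972, exact permutation p = 0.429). Of the proteins that bind methylated DNA, 0 of 7 passed, with Mbd2 the largest (0.27, limma p = 0.221, adjusted p = 0.947, exact permutation p = 0.257). Without WT1, Cxxc4 (-0.60) and Mbd2 (0.44) both passed the threshold, as did, in the lower direction, Zbtb4 (-0.40), another methyl-binding protein, named here after its values were seen. Zbtb4 was also called lower under both scalings (-0.35 in each) and without WT1 and WT3 (-0.37). In the methionine cycle, which makes the methyl donor, 1 of 12 was called higher, against 4.61% of all tested genes. The gene called was Bhmt, the betaine-dependent methyltransferase of homocysteine, at 0.224, 0.360, 0.649 and 0.555 FPKM in WT1 to WT4 and 1.18, 1.003, 1.73 and 1.06 in KO1 to KO4 (1.34, limma p = 0.00452, adjusted p = 0.947, exact permutation p = 0.0286). These values are low but did not overlap, and Bhmt was called in all 8 fits that left out 1 library. Ahcyl2, an S-adenosylhomocysteine hydrolase-like gene named here after its values were seen, did not pass with 8 libraries (-0.78, limma p = 0.0657, adjusted p = 0.947, exact permutation p = 0.0857), but it was called lower with median-ratio scaling (-0.88), with quantile normalization (-0.96), without WT1 (-1.07) and without WT1 and WT3 (-0.83). A seed match was present in the 3′-UTR of 7 of the 52 genes, of which 2 passed (Ung and Bhmt) with a median log2 fold change of 0.13, and 4 of the other 45 passed, with a median of 0.11.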

How the data were processed

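Cochlear RNA was depleted of ribosomal RNA and sequenced as strand-specific paired-end libraries, 4 WT and 4 KO. Per the study's methods the authors mapped reads with Hisat2. FPKM per gene and library were deposited. The submitters' notes name mm9, but 19771 of the 21760 gene identifiers found in GENCODE M21 have its GRCm38 coordinates, including all 7 enzyme genes. Counts were not used here, so the authors' count-based test was not repeated, counting error is unknown, and relative depth was estimated from values under 0.1 FPKM. The number of per-sample columns without a mapped sample was 0.

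log2(FPKM + 0.1) was fitted with limma 3.58.1 in R 4.3.3 with a mean-variance trend and genotype as the only factor; the filter was a mean of 0.5 FPKM or more. P-values were adjusted by Benjamini-Hochberg over all 14990 tested genes, and differential expression was called at an unadjusted p under 0.05. Single values were tested by exact permutation of libraries. The scripts were tested on simulated data. The members, gene lists and tests were chosen with earlier results of these data known. Named genes were the 7 enzymes, each other pathway gene called or with the largest absolute log2 fold change of its list, and the 3 genes most correlated with each enzyme over 8 libraries, from genes averaging 1 FPKM or more; a few of these are not reported here. Alternatives were other pseudocounts, filters, scalings, weights, a replicate block, replicates 1 to 3 only (the study's figure names 3 per group) and leaving out libraries. Seed matches and shared 50-base words were found in GENCODE transcripts with Python 3.11.15.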

Additional observations from a re-analysis of the deposited data

Results flagged for a closer look

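In groups of 4 libraries, the gap between the most extreme library and its nearest neighbour, divided by the range of the group, exceeded the 95% critical value of Dixon's test in 9 of 62 groups examined. Chance gives about 1 in 20 such groups, and many of these values share Dnmt1 or the same libraries. WT1 was the extreme library for the log2 ratios to Dnmt1 of Dnmt3a (0.889), Tet3 (0.907) and Tdg (0.854), lying below the other WT libraries in each, and for Cxxc4 (0.911), where it was also the lowest. WT3 was the extreme and lowest WT library for Hells (0.852) and Neil3 (0.836). KO4 was the highest KO library for Dnmt3a (0.830) and for the log2 ratio of Tet1 to Dnmt1 (0.872), and the lowest for the sum of the proliferation genes (0.959).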

How the results depend on the processing

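Depth and counting error are unknown, and 4 libraries per group limit what can be seen. Tet1, Tet2, Tdg and Dnmt3a kept their direction and side of the threshold in all 18 alternatives, but their size moved when 1 library was left out (Tet1 0.097 to 0.24, Tet2 -0.27 without WT3 to -0.030 without WT1, Tdg 0.19 to 0.43, Dnmt3a 0.17 to 0.53). Other settings moved some of them further. Tet1 was 0.062 with median-ratio scaling and 0.031 with quantile normalization. With sample weights Dnmt3a was 0.060 and Tdg 0.15, and without WT1 and WT3 they were 0.022 and 0.15. At an unadjusted p under 0.05, the call of Tet3 was lost only without both WT1 and WT3 (0.27, adjusted p = 0.314). That setting was chosen after the data were seen. Over the alternatives the adjusted p of Tet3 ranged from 0.0970 to 0.9999, so no alternative kept its call after adjustment. Dnmt1 passed with sample weights (0.52, adjusted p = 0.0625), without WT1 and WT3 (0.48, adjusted p = 0.230) and in 1 leave-one-out fit, without WT1 (range 0.26 to 0.68). Dnmt3b, near 0 in the main comparison, turned sign with replicates 1 to 3 only (0.10) and in leave-one-out fits (-0.11 to 0.19). It lay further below 0 with quantile normalization (-0.28), with sample weights (-0.29) and without WT1 and WT3 (-0.31). These p-values are from limma.

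Members called were 0 after adjustment, 2 with sample weights and 1 to 2 in leave-one-out fits. Other pathway genes called were 0 after adjustment, 18 with weights, 13 without WT1 and WT3, and 3 (without KO2) to 15 (without WT1) in leave-one-out fits. All genes called were 4133 with weights, 2430 without WT1 and WT3, and 347 (without KO3) to 2922 (without WT1) in leave-one-out fits, with 377 without KO2. The cause of these shifts was not tested.

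The log2 ratio of Dnmt3a to Dnmt1 ranged over -0.52 to 0.12 in leave-one-out fits, that of Tet3 over -0.24 to 0.14 (and -0.011 with replicates 1 to 3 only), and that of Tet2 over -0.71 to -0.52, with exact p = 0.1 for -0.70 in replicates 1 to 3, the smallest p that 3 against 3 can give.

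Same-numbered libraries correlated at 0.42, -0.24, -0.17 and 0.21 in their deviations from the group means, and 2 of 4 numbers matched best with their own. With 4 numbers, these values neither show nor exclude that the numbers pair the libraries. A replicate block called 838 genes, 9 other pathway genes and 1 member, and the single result it changed was the Tet2 ratio (-0.62, exact sign-flip p = 0.125, the smallest 4 pairs can give).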
